A study of Homo sapiens with 12 samples.

Results

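The mitosis genes described here are 48 genes taken by symbol from a list of mitotic kinases, kinesins, spindle checkpoint genes and genes around the anaphase-promoting complex (APC/C), the ubiquitin ligase that ends mitosis. The rule itself uses no measured value, but these genes and the other lists below were chosen with earlier results of these data known. Their shares below are therefore not those of lists drawn blind to the data. Each symbol matched 1 Ensembl identifier among the 57820 gene rows of the count table, and all 48 passed the filter on low counts that left 17096 genes for testing. The RNA came from 3 human cancer cell lines, A549 from lung, SKOV3 from ovary and MDA-MB-231 from breast, none of which has an amplified MYC gene per the study's design. Each line had been transduced with lentivirus carrying either a c-Myc expression vector (the full-length human protein) or a control vector, and the MYC cells were selected for puromycin resistance. The labels call the control cells WT, and these carried the control vector. Cells of both kinds were then kept for 48 h in tipifarnib, an inhibitor of the enzyme farnesyltransferase, or in DMSO as the control. The dose was 10 µM in A549 but 20 µM in both SKOV3 and MDA-MB-231. The 12 libraries thus form 4 groups of 3, with 1 library of each line in every group. The study asked which genes go with a change of tipifarnib sensitivity when c-Myc is overexpressed.

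Cells enter mitosis when CDK1 bound to its cyclins is activated by CDC25 phosphatases. Condensins and topoisomerase II then shape the chromosomes, kinesin motors and spindle assembly factors build the spindle, and kinetochores attach the chromosomes to it while the spindle checkpoint holds back the APC/C. Once the APC/C is active, securin and the cyclins are destroyed, separase parts the sister chromatids and the cell divides by cytokinesis. Most of these genes are transcribed in the G2 and M phases of the cell cycle, and the transcription factors MYBL2 and FOXM1, acting with the MuvB protein complex, are known as activators of this set. Their messages are therefore widely used as measures of how much a culture is dividing.

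Promoters of such genes often hold a cell cycle genes homology region (CHR) and CCAAT boxes, the latter bound by the factor NF-Y. RefSeq promoter windows (assembly GRCh38.p14, from 250 bases before to 50 bases after the first listed start of a gene) were matched for 42 of the 48 members. AURKA, BIRC5, FOXM1, TPX2, TTK and UBE2C were not matched. A CHR, searched as TTTGAA on both strands (TTCAAA read backwards), was found in 28 of the 42 windows (66.7%), against 15.4% of the windows of all 27305 genes. A CCAAT box, searched as CCAAT or ATTGG, was found in 32 of 42 (76.2%) against 35.7% of all genes. Both motifs were found in 22 of 42 (52.4%) against 6.08% of all genes. The MYC E-box CACGTG, which reads the same on both strands, was found in 5 of 42 (11.9%) against 7.43%. Of the 37 CHR matches, 28 lay no farther than 100 bases before the start, with a median position of -29.0, and the 64 CCAAT matches had a median position of -73.5.

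The 150 bases before the start are shown for the 6 members with the smallest p for tipifarnib among those with a CHR or a CCAAT box in their window. Capitals mark the CHR (TTTGAA or TTCAAA) and the CCAAT box (CCAAT or ATTGG). The sequences are read 5′ to 3′ on the gene's own strand, ending at the base before the start.
PLK1: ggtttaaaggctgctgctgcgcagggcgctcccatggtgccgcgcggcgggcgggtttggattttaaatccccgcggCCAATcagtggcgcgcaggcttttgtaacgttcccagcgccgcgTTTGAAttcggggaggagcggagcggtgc
CCNA2: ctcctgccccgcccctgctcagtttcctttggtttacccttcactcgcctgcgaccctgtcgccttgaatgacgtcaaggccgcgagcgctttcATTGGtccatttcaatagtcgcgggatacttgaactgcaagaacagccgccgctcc
NCAPH: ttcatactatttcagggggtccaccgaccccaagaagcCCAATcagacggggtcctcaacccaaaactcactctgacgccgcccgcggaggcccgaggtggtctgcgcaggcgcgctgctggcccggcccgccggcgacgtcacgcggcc
NCAPG: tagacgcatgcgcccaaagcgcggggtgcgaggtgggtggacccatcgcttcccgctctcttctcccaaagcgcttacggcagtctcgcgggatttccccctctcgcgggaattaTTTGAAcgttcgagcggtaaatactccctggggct
MKI67: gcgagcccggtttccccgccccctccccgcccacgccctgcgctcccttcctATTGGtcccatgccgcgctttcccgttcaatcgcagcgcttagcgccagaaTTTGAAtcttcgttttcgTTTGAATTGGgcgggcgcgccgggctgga
KIF11: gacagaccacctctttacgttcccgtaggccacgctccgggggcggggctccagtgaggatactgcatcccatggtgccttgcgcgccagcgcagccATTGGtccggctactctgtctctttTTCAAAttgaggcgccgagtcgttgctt
The PLK1 stretch is chr16:23678739-23678888 on the plus strand, CCNA2 chr4:121823884-121824033 on the minus strand, NCAPH chr2:96335616-96335765 on the plus strand, NCAPG chr4:17810829-17810978 on the plus strand, MKI67 chr10:128126424-128126573 on the minus strand and KIF11 chr10:92592980-92593129 on the plus strand. As searched, PLK1, MKI67 and KIF11 hold both motifs in the bases shown, CCNA2 and NCAPH only a CCAAT box, and NCAPG only a CHR. Variants of the CHR letters, such as cttgaa in the CCNA2 stretch, were not searched, so an unmarked stretch does not show that a CHR is absent. In MKI67 a CHR and a reversed CCAAT box overlap. These matches are descriptions of the letters in the window, not measured binding. Gene positions are given only for these promoters, because the counts were made on hg19 and the annotation at hand is on GRCh38.

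The libraries held 20481363 to 26962994 counts in genes. Reads of the 48 members made up 0.323% to 0.909% of them, and mitochondrial genes 3.65% to 5.59%. Levels are given as CPM, counts relative to a library size scaled by TMM, a between-library normalisation, always in the order A549, SKOV3, MDA-MB-231, and changes as log2 fold change ± standard error of the fit. A gene is said to have risen or fallen where edgeR's quasi-likelihood test gave it an adjusted p under 0.05 (Benjamini-Hochberg, over all 17096 genes). The replicates of a group are different cell lines, and the labels name no repeat culture. The p-values therefore reflect only how changes vary between these lines and pairs, not between repeat cultures, and part of this may be technical. MYC itself had 105, 48.4 and 148 CPM in control cells with DMSO, 143, 99.7 and 349 in control cells with tipifarnib, 912, 494 and 709 in MYC cells with DMSO and 506, 610.1 and 1593 in MYC cells with tipifarnib, higher in the MYC library than in its control in every line and treatment, with vector and endogenous transcripts not separable. The 4 A549 markers summed to 10620 to 14226 CPM in A549 and 11.8 to 181 CPM elsewhere. The 4 SKOV3 markers summed to 1421 to 6010 CPM in SKOV3 and 62.0 to 135 CPM elsewhere. Of these, CLDN3 on its own did not mark SKOV3, at 1.52 to 5.46 CPM there and 1.39 to 5.02 CPM in A549. The MDA-MB-231 list (VIM, ZEB1, CD44, PLAU) did not single out that line, with 1586 to 2204 CPM there and 968 to 1808 CPM in SKOV3. Leukocyte markers were at 0 to 0.598 CPM. Fibroblast markers summed to 7.14 to 64.6 CPM in A549 and MDA-MB-231. In A549 the sum was 64.6 CPM in MYC and 23.0 in control cells with DMSO, and 35.9 and 18.9 CPM with tipifarnib. COL3A1 there was at 42.2 CPM in MYC and 2.82 CPM in control cells with DMSO. In SKOV3 that sum moved with tipifarnib, from 401 to 164 CPM in control cells and from 281 to 23.1 CPM in MYC cells, nearly all of it COL1A1 and COL1A2, with DCN at 0 to 0.299 CPM and PDGFRA at 0 to 0.661 CPM. The SKOV3 marker sum moved there too, from 6010 to 3110 CPM with tipifarnib in control cells and from 2763 to 1421 CPM in MYC cells, nearly all of it ERBB2, which changed by -1.08 ± 0.12 with tipifarnib in SKOV3 (adjusted p = 0.000804). In both treatments the SKOV3 marker sum was also lower in MYC than in control cells of that line. The part of these shifts in the values below was not tested.

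The mitosis genes fell in tipifarnib nearly as a whole. Over both genotypes, that is over 6 pairs of tipifarnib and DMSO libraries, 46 of 48 fell and none rose, while 6.63% of all genes tested fell and 4.66% rose. The median change was -0.81, or 1.76-fold lower, against 0.0007 for all genes tested, and the changes ran from -1.26 for TOP2A to -0.21 for CDC25B. In all 6 pairs 47 members were lower in tipifarnib, as were 10.9% of all genes. For 9 members (BIRC5, CCNA2, CDK1, INCENP, MKI67, MYBL2, PLK1, SPC25 and TOP2A) every tipifarnib library was below every DMSO library whatever the line, which held for 0.801% of all genes. The summed level of the 48 genes was 7358, 6126 and 9547 CPM in control cells with DMSO, 4033, 3048 and 4628 in control cells with tipifarnib, 6486, 5924 and 8629.6 in MYC cells with DMSO and 4187, 3153 and 5537 in MYC cells with tipifarnib. In bulk RNA, fewer cells in mitosis and less mitotic RNA per cell cannot be told apart.

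The count depends on how the lines are treated. The control pair and the MYC pair of a line come from the same line, but the model counts them as separate. With the libraries of a line summed, leaving 3 pairs, 13 members fell (ANLN, BIRC5, CCNA2, FOXM1, KIF11, KIF2C, MKI67, NCAPG, NCAPH, PLK1, SPC24, TOP2A and UBE2C), against 0.322% of all genes. Without MDA-MB-231 the count was 21, against 0.366% of all genes.

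**Figure D1:**
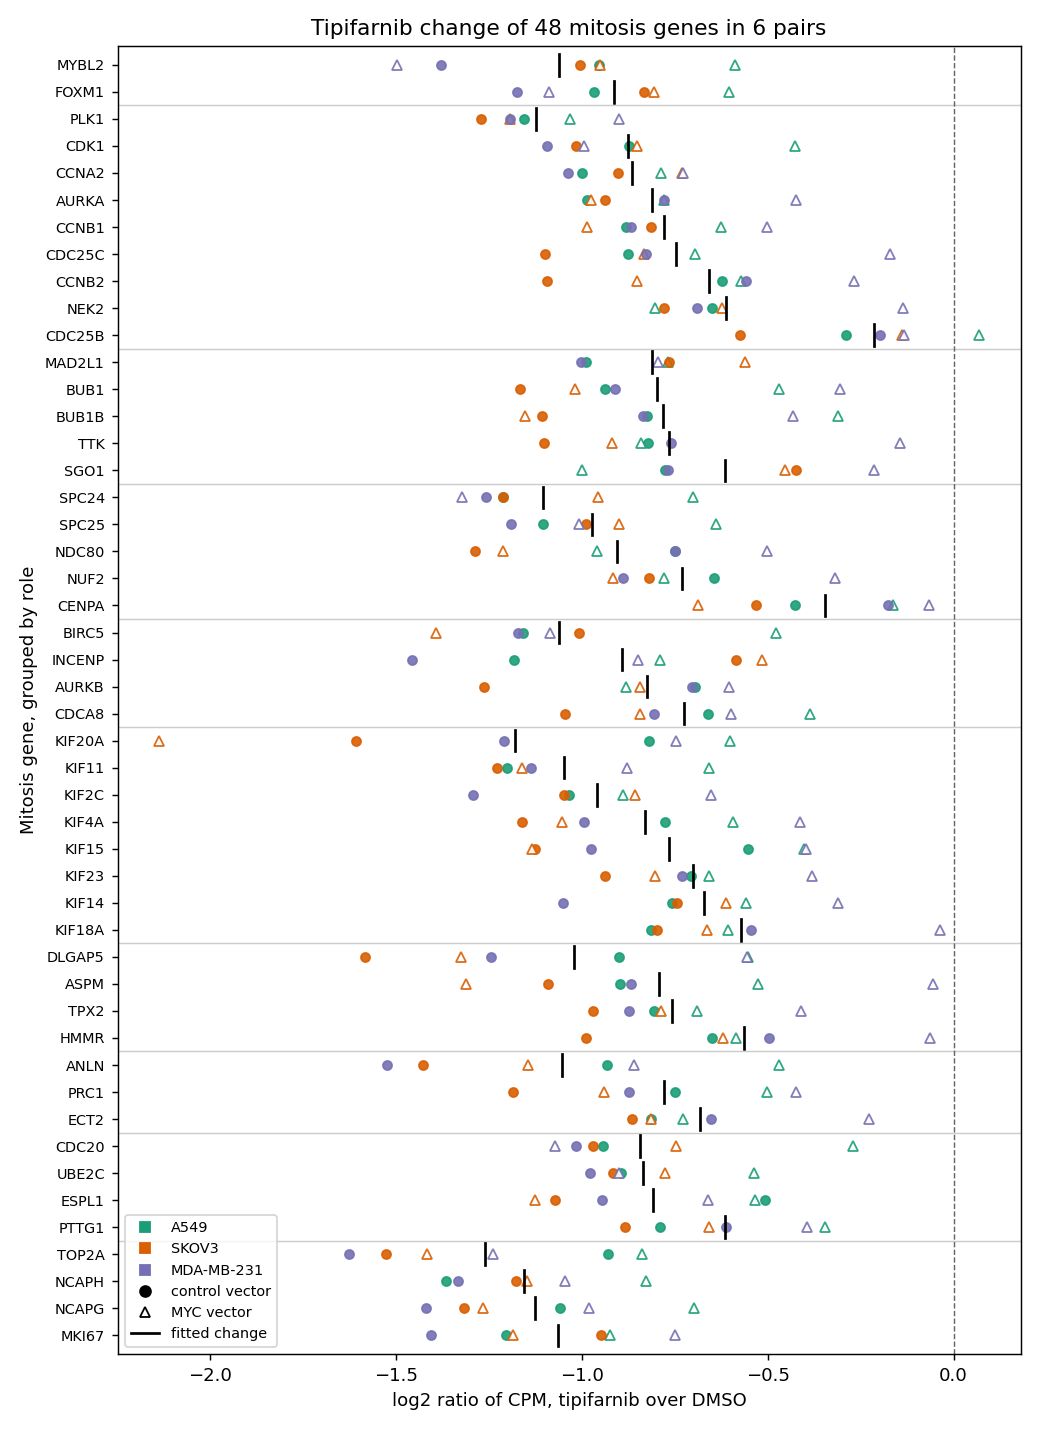
The log2 ratio of CPM in tipifarnib over DMSO (x axis) for each of the 48 mitosis genes (y axis, grouped by role), with 1 point per cell line and vector and a black bar at the fitted change over both genotypes. Points lie left of 0 for 47 genes in all 6 pairs, and CDC25B in A549 MYC cells is the exception.

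Both transcription factors of the set fell. MYBL2, which works with the MuvB complex at the G2 and M phase genes, had 189, 275 and 187 CPM in control cells with DMSO, 97.7, 137 and 71.9 in control cells with tipifarnib, 176, 287 and 217 in MYC cells with DMSO and 117, 148 and 76.9 in MYC cells with tipifarnib. All 6 tipifarnib libraries were below all 6 DMSO libraries, and the change was -1.06 ± 0.12 (adjusted p = 0.00102). FOXM1, a forkhead activator of the same genes, had 162, 54.3 and 149.9 CPM in control cells with DMSO, 82.7, 30.5 and 66.5 in control cells with tipifarnib, 137, 60.5 and 117 in MYC cells with DMSO and 90.4, 34.6 and 55.0 in MYC cells with tipifarnib. SKOV3 had the lowest level in each group, so its DMSO libraries overlapped the treated libraries of the other lines, while each pair was lower in tipifarnib. The change was -0.91 ± 0.10 (adjusted p = 0.00125).

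Among 9 entry kinases, cyclins and phosphatases 8 fell. PLK1 (ENSG00000166851.10), a kinase needed for entry, centrosome maturation and spindle assembly, had 206, 131 and 165 CPM in control cells with DMSO, 92.6, 54.2 and 72.1 in control cells with tipifarnib, 218, 152 and 186 in MYC cells with DMSO and 106, 66.5 and 99.7 in MYC cells with tipifarnib. A549 was highest and SKOV3 lowest in each group, and treated and untreated libraries did not overlap. The change was -1.12 ± 0.076 (adjusted p = 0.000491). CCNA2 (cyclin A2), a partner of CDK2 and CDK1, had 104, 105 and 174 CPM in control cells with DMSO, 52.2, 56.4 and 84.6 in control cells with tipifarnib, 116, 119 and 168 in MYC cells with DMSO and 67.5, 71.8 and 102 in MYC cells with tipifarnib. MDA-MB-231 was highest in each group, its treated libraries lay just under the untreated ones of the other lines, and the change was -0.86 ± 0.07 (adjusted p = 0.000491). CDC25B (ENSG00000101224.13), a phosphatase that activates CDK1, stood apart, with 369.9, 719 and 151 CPM in control cells with DMSO, 302, 483 and 131 in control cells with tipifarnib, 286, 442 and 136 in MYC cells with DMSO and 299.8, 401 and 124 in MYC cells with tipifarnib. The lines differed far more than the treatments did, with SKOV3 highest and MDA-MB-231 lowest in each group. Its change of -0.21 ± 0.094 (adjusted p = 0.17) did not pass, and 5 of 6 pairs were lower. CDK1 changed by -0.88 ± 0.087, its cyclins CCNB1 and CCNB2 by -0.78 ± 0.082 and -0.66 ± 0.10, the other phosphatase CDC25C by -0.75 ± 0.13, and the centrosomal kinases AURKA and NEK2 by -0.81 ± 0.09 and -0.61 ± 0.10.

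The 4 chromosome structure genes all fell, with a median of -1.14. TOP2A (ENSG00000131747.10), the topoisomerase that untangles sister DNAs, had 1043, 701 and 920.2 CPM in control cells with DMSO, 547, 243 and 298 in control cells with tipifarnib, 808, 648 and 771 in MYC cells with DMSO and 452, 243 and 327 in MYC cells with tipifarnib. Untreated and treated libraries did not overlap, and its change of -1.26 ± 0.12 (adjusted p = 0.000559) was the lowest of the 48. NCAPH, the bridging subunit of condensin I, had 75.8, 47.8 and 95.2 CPM in control cells with DMSO, 29.4, 21.2 and 37.8 in control cells with tipifarnib, 65.5, 65.5 and 99.6 in MYC cells with DMSO and 36.9, 29.6 and 48.3 in MYC cells with tipifarnib. In control cells SKOV3 was lowest with and without tipifarnib, and the treated MDA-MB-231 MYC library lay just above untreated SKOV3 control cells. The change was -1.15 ± 0.093 (adjusted p = 0.000491). NCAPG, another condensin I subunit, had 80.4, 113 and 182 CPM in control cells with DMSO, 38.6, 45.4 and 68.1 in control cells with tipifarnib, 71.7, 121 and 154 in MYC cells with DMSO and 44.2, 50.3 and 78.3 in MYC cells with tipifarnib. MDA-MB-231 was highest in each group and A549 lowest, and the change was -1.13 ± 0.092 (adjusted p = 0.000491). MKI67 (Ki-67), which coats mitotic chromosomes and marks cycling cells, changed by -1.06 ± 0.093.

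All 8 kinesins fell. KIF11 (Eg5), the motor that pushes spindle poles apart, had 229, 89.1 and 279.7 CPM in control cells with DMSO, 99.8, 38.0 and 127 in control cells with tipifarnib, 166, 95.002 and 235 in MYC cells with DMSO and 105, 42.5 and 128 in MYC cells with tipifarnib. SKOV3 was lowest in each group, with untreated levels below the treated levels of the other lines, and the change within pairs was -1.05 ± 0.092 (adjusted p = 0.0005). KIF2C (MCAK), a microtubule depolymerase at kinetochores, had 71.5, 96.5 and 149 CPM in control cells with DMSO, 34.9, 46.7 and 60.9 in control cells with tipifarnib, 62.3, 102 and 129 in MYC cells with DMSO and 33.7, 56.4 and 82.4 in MYC cells with tipifarnib. MDA-MB-231 was highest in each group and its treated MYC library lay above both untreated A549 libraries. The change was -0.96 ± 0.085 (adjusted p = 0.0005). KIF18A, which damps chromosome movement at the spindle centre, had 74.7, 43.8 and 74.2 CPM in control cells with DMSO, 42.5, 25.2 and 50.8 in control cells with tipifarnib, 55.4, 37.8 and 65.9 in MYC cells with DMSO and 36.4, 23.9 and 64.3 in MYC cells with tipifarnib. In MDA-MB-231 MYC cells the treated and the untreated library were nearly level, and the change of -0.57 ± 0.11 (adjusted p = 0.0118) was the smallest among the kinesins. KIF20A, a motor of the central spindle, changed by -1.18 ± 0.19, KIF4A by -0.83 ± 0.10, KIF15, another motor of spindle pole separation, by -0.76 ± 0.12, KIF23, a subunit of centralspindlin, by -0.70 ± 0.08 and KIF14, which acts in cytokinesis, by -0.67 ± 0.11.

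The 5 genes of the checkpoint and of cohesion protection all fell. MAD2L1 (ENSG00000164109.9), which holds CDC20 in the checkpoint complex, had 84.2, 93.9 and 128 CPM in control cells with DMSO, 42.4, 55.3 and 63.9 in control cells with tipifarnib, 109, 114 and 150.2 in MYC cells with DMSO and 64.1, 77.5 and 86.7 in MYC cells with tipifarnib. Each MYC library was above its control in the same line and treatment, and the tipifarnib change was -0.81 ± 0.075 (adjusted p = 0.000559). BUB1, a checkpoint kinase at kinetochores, had 104, 55.2 and 205 CPM in control cells with DMSO, 54.1, 24.6 and 109 in control cells with tipifarnib, 76.2, 56.9 and 189 in MYC cells with DMSO and 55.1, 28.1 and 153 in MYC cells with tipifarnib. MDA-MB-231 was highest in each group, with treated levels above the untreated levels of the other lines, and the change was -0.80 ± 0.11 (adjusted p = 0.00285). SGO1 (shugoshin), the protector of centromeric cohesin, had 15.5, 5.95 and 21.8 CPM in control cells with DMSO, 9.05, 4.43 and 12.8 in control cells with tipifarnib, 21.8, 6.13 and 18.2 in MYC cells with DMSO and 10.9, 4.48 and 15.7 in MYC cells with tipifarnib. SKOV3 was lowest in each group, its untreated libraries lying below the treated ones of the other lines, and the change was -0.61 ± 0.15 (adjusted p = 0.0282). BUB1B (BubR1) changed by -0.78 ± 0.11 and the kinase TTK (MPS1) by -0.76 ± 0.11.

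Among 5 kinetochore and centromere genes 4 fell. SPC25 and SPC24 are the inner subunits of the NDC80 complex, which binds microtubules. SPC25 had 29.7, 34.3 and 43.8 CPM in control cells with DMSO, 13.8, 17.3 and 19.2 in control cells with tipifarnib, 22.9, 30.1 and 39.0 in MYC cells with DMSO and 14.7, 16.1 and 19.4 in MYC cells with tipifarnib. Treated and untreated libraries did not overlap, and the change was -0.97 ± 0.093 (adjusted p = 0.000559). SPC24 had 30.5, 61.4 and 67.3 CPM in control cells with DMSO, 13.2, 26.5 and 28.2 in control cells with tipifarnib, 28.4, 63.1 and 57.9 in MYC cells with DMSO and 17.4, 32.6 and 23.2 in MYC cells with tipifarnib. A549 was lowest in each group, and the treated SKOV3 MYC library lay above both untreated A549 libraries. The change was -1.10 ± 0.11 (adjusted p = 0.000666). CENPA (ENSG00000115163.10), the histone H3 variant that marks centromeres, had 39.4, 31.0 and 24.7 CPM in control cells with DMSO, 29.3, 21.4 and 21.8 in control cells with tipifarnib, 28.8, 35.1 and 27.9 in MYC cells with DMSO and 25.7, 21.8 and 26.7 in MYC cells with tipifarnib. All 6 pairs were lower in tipifarnib, by little in MDA-MB-231 and by most in SKOV3, and the change of -0.35 ± 0.13 (adjusted p = 0.114) did not pass. The outer subunits NDC80 and NUF2 changed by -0.90 ± 0.12 and -0.73 ± 0.10.

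The 4 members of the chromosomal passenger complex, which corrects faulty attachments and acts again in cytokinesis, fell together. AURKB, its kinase, had 124, 43.1 and 124 CPM in control cells with DMSO, 76.8, 18.0 and 76.3 in control cells with tipifarnib, 148, 49.3 and 167 in MYC cells with DMSO and 80.3, 27.5 and 109.8 in MYC cells with tipifarnib. SKOV3 was far below the other lines in each group, and the change was -0.82 ± 0.10 (adjusted p = 0.00161). BIRC5 (survivin), a targeting subunit, had 54.0, 29.7 and 43.7 CPM in control cells with DMSO, 24.2, 14.8 and 19.4 in control cells with tipifarnib, 36.1, 39.4 and 43.1 in MYC cells with DMSO and 25.9, 15.0 and 20.3 in MYC cells with tipifarnib. All 6 treated libraries were below all 6 untreated ones, and the change was -1.06 ± 0.13 (adjusted p = 0.00161). INCENP, the scaffold, had 153, 173 and 189 CPM in control cells with DMSO, 67.3, 116 and 68.9 in control cells with tipifarnib, 144, 164 and 174 in MYC cells with DMSO and 83.2, 115 and 96.7 in MYC cells with tipifarnib. Here too the treated and untreated libraries did not overlap, although SKOV3 changed least, and the change was -0.89 ± 0.11 (adjusted p = 0.00185). CDCA8 (borealin) changed by -0.72 ± 0.09.

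The 4 spindle assembly genes fell. TPX2, which activates AURKA on spindle microtubules, had 365, 288 and 689 CPM in control cells with DMSO, 209, 147 and 376 in control cells with tipifarnib, 337, 302 and 599 in MYC cells with DMSO and 209, 175 and 450.2 in MYC cells with tipifarnib. MDA-MB-231 was highest in each group, and the change was -0.76 ± 0.083 (adjusted p = 0.0011). DLGAP5 (HURP), a stabiliser of kinetochore fibres, had 129.7, 91.8 and 315 CPM in control cells with DMSO, 69.6, 30.7 and 133 in control cells with tipifarnib, 94.4, 81.6 and 252 in MYC cells with DMSO and 64.4, 32.6 and 171 in MYC cells with tipifarnib. SKOV3 and MDA-MB-231 control cells changed more than A549, and the change over all pairs was -1.02 ± 0.13 (adjusted p = 0.00179). HMMR, a spindle pole protein, had 86.1, 48.7 and 30.4 CPM in control cells with DMSO, 54.9, 24.6 and 21.6 in control cells with tipifarnib, 81.1, 50.7 and 33.7 in MYC cells with DMSO and 54.1, 33.0 and 32.3 in MYC cells with tipifarnib. The MDA-MB-231 MYC libraries with and without tipifarnib were nearly level, and the change was -0.56 ± 0.11 (adjusted p = 0.0142). ASPM, also at spindle poles, changed by -0.79 ± 0.14.

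The 3 cytokinesis genes fell. ANLN (anillin), a scaffold of the contractile ring, had 248.5, 245 and 486 CPM in control cells with DMSO, 130.4, 91.0 and 169 in control cells with tipifarnib, 154, 149.6 and 364 in MYC cells with DMSO and 111, 67.7 and 200.3 in MYC cells with tipifarnib. MYC cells were below control cells in DMSO in each line, and the tipifarnib change was -1.05 ± 0.13 (adjusted p = 0.00148). PRC1, which bundles the microtubules of the central spindle, had 185, 110.2 and 232 CPM in control cells with DMSO, 110.2, 48.5 and 127 in control cells with tipifarnib, 183, 105 and 199 in MYC cells with DMSO and 129, 54.6 and 148 in MYC cells with tipifarnib. SKOV3 was lowest in each group, and the change was -0.78 ± 0.093 (adjusted p = 0.00149). ECT2, the activator of RhoA at the division site, had 308, 179.5 and 254 CPM in control cells with DMSO, 175, 98.6 and 162 in control cells with tipifarnib, 321, 157 and 224 in MYC cells with DMSO and 194, 89.4 and 191 in MYC cells with tipifarnib. A549 was highest in each group, and the change was -0.68 ± 0.10 (adjusted p = 0.00316).

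The 4 genes of the APC/C and of sister separation fell. UBE2C, the ubiquitin-conjugating enzyme of the APC/C, had 119.5, 94.4 and 198 CPM in control cells with DMSO, 64.3, 50.1 and 101 in control cells with tipifarnib, 111, 108 and 240.4 in MYC cells with DMSO and 76.7, 63.3 and 129 in MYC cells with tipifarnib. MDA-MB-231 was highest in each group and its treated libraries overlapped the untreated ones of the other lines, and the change was -0.84 ± 0.08 (adjusted p = 0.000559). CDC20, the activating subunit in early mitosis, had 193, 272 and 278 CPM in control cells with DMSO, 101, 139 and 138 in control cells with tipifarnib, 142, 273 and 316 in MYC cells with DMSO and 117, 163 and 150.3 in MYC cells with tipifarnib. A549 was lowest in each group, and the change was -0.84 ± 0.11 (adjusted p = 0.00178). ESPL1 (separase), the protease that cuts cohesin, had 73.8, 52.7 and 79.8 CPM in control cells with DMSO, 51.9, 25.1 and 41.5 in control cells with tipifarnib, 83.8, 62.2 and 76.9 in MYC cells with DMSO and 57.9, 28.5 and 48.7 in MYC cells with tipifarnib. SKOV3 was lowest in each group, and the change was -0.81 ± 0.10 (adjusted p = 0.00197). PTTG1 (securin), the inhibitor of separase, changed by -0.61 ± 0.079.

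**Figure D2:**
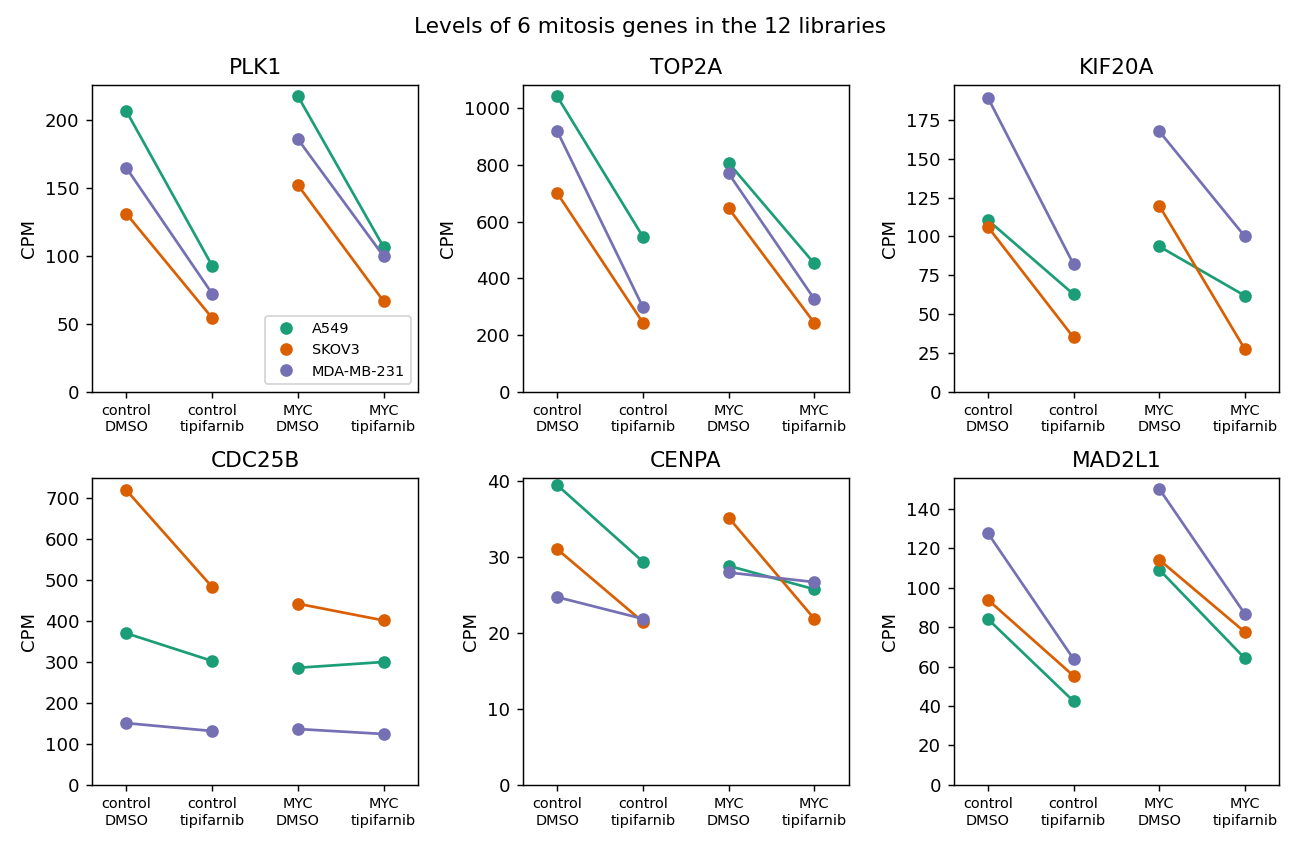
CPM (y axis, starting at 0) of 6 mitosis genes in the 12 libraries by vector and treatment (x axis), with a colour for each cell line and lines joining DMSO to tipifarnib. PLK1 and TOP2A are lower in tipifarnib in every pair, KIF20A drops most in SKOV3, CDC25B and CENPA did not pass over both genotypes, and MAD2L1 is higher in each MYC library than in its control.

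The lines shared most of this change. In A549 45 members fell, against 4.47% of all genes, in SKOV3 46, against 7.48%, and in MDA-MB-231 39, against 12.1%, with medians of -0.74, -0.96 and -0.69 and none that rose. In every line 38 members fell, against 1.39% of all genes. ASPM, CDC25C, HMMR, KIF15, KIF18A, NEK2 and TTK fell in 2 lines, CENPA and SGO1 in 1, and CDC25B in none. CENPA fell in SKOV3 by 0.61 (adjusted p = 0.0171) and SGO1 in A549 by 0.89 (adjusted p = 0.0268). MDA-MB-231 accounted for most of the members that missed the threshold in a line, 9 in all, with HMMR at -0.27 ± 0.15 and KIF18A at -0.29 ± 0.14 there. The counts within a line rest on 2 pairs each. In this model, also used for differences between lines, the error is how the tipifarnib change differs between the control and MYC pairs of a line. Its p-values thus do not measure the spread of repeat cultures. Without the control pair 8 members fell in A549, against 0.898% of all genes, 36 in SKOV3, against 3.86%, and 9 in MDA-MB-231, against 2.02%. Without the MYC pair 18 fell in A549, against 0.86% of all genes, 31 in SKOV3, against 1.44%, and 25 in MDA-MB-231, against 1.47%.

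The size of the change was not the same gene by gene. SKOV3 had the lowest of the 3 fitted changes for 32 members, MDA-MB-231 for 13 and A549 for 3. The order of lines over all genes was not counted, so this is not read as a trait of the members. Across the 48 genes, which share libraries and are not independent, the changes of A549 and MDA-MB-231 were related with Pearson's r of 0.578 (Spearman's rho 0.469), those of SKOV3 and MDA-MB-231 with 0.459 (0.442) and those of A549 and SKOV3 with 0.277 (0.187). The difference between lines was tested in the model with each line's own effects. KIF20A (ENSG00000112984.7) was the only member past the threshold. It had 111, 106 and 189.6 CPM in control cells with DMSO, 62.7, 34.9 and 82.1 in control cells with tipifarnib, 93.6, 119.9 and 168 in MYC cells with DMSO and 61.8, 27.3 and 99.98 in MYC cells with tipifarnib, with the lowest treated levels in SKOV3. It changed by -1.87 ± 0.16 in SKOV3, -0.98 ± 0.16 in MDA-MB-231 and -0.71 ± 0.16 in A549. SKOV3 minus MDA-MB-231, both at 20 µM, was -0.89 ± 0.22 (adjusted p = 0.0429), in a comparison where 7.34% of all genes passed in either direction. A549 minus SKOV3 was 1.16 ± 0.22 (adjusted p = 0.0306), where 3.4% of all genes passed, and the adjusted p was 0.064 when only the 8 libraries of those lines were fitted. Between A549 and MDA-MB-231 no member passed (2 at an unadjusted p under 0.05; 1 with DESeq2), where 1.73% of all genes did, and MYBL2 and TOP2A came nearest, at 0.67 ± 0.17 (adjusted p = 0.101) and 0.55 ± 0.18 (adjusted p = 0.172). A549 received the lower dose, so line and dose cannot be told apart in its differences.

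Other genes of mitosis were read from lists of the same pathway. Of 30 other kinetochore and centromere genes 25 fell in tipifarnib over both genotypes, where 6.63% of all genes fell, with a median of -0.67. ZWINT, which links the checkpoint to the kinetochore, changed by -1.11 ± 0.11, CENPF by -0.90 ± 0.10, SKA2 by -0.77 ± 0.082 and the scaffold KNL1 by -0.70 ± 0.077, whereas the checkpoint gene MAD1L1 was at 0.53 ± 0.18 (adjusted p = 0.0837). Within lines MAD1L1 rose in SKOV3, by 0.91 ± 0.20 (adjusted p = 0.014), and in MDA-MB-231, by 0.75 ± 0.19 (adjusted p = 0.0191), and was at -0.076 ± 0.19 (adjusted p = 0.858) in A549. Of 32 other spindle and cytokinesis genes 24 fell (median -0.71), among them SPAG5 (-0.995 ± 0.10), ARHGAP11A (-0.81 ± 0.084), DEPDC1 (-0.73 ± 0.077) and CDCA2 (-0.88 ± 0.10). Of 14 other condensin and cohesin genes 11 fell (median -0.62), led by the condensin genes NCAPG2 (-0.87 ± 0.07), NCAPD2 (-0.98 ± 0.086), SMC4 (-0.80 ± 0.076) and SMC2 (-0.93 ± 0.094). Of 15 other mitotic entry regulators 8 fell (median -0.60), with PLK4, the kinase of centriole duplication, at -0.65 ± 0.083, CCNF at -0.93 ± 0.12, CDK2 at -0.62 ± 0.089 and the CDK1 inhibitor kinase PKMYT1 at -0.98 ± 0.15.

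Lists of the APC/C and of the complexes that control the mitosis genes had smaller shares of genes that fell, beside the same 6.63% of all genes. Of 17 other APC/C genes 5 fell and the median was -0.16. These included the APC/C inhibitor FBXO5 (-1.03 ± 0.11), the subunits ANAPC2 (-0.56 ± 0.085) and CDC27 (-0.31 ± 0.072), and UBE2S (-0.60 ± 0.14), an enzyme that extends the ubiquitin chains. Of 12 genes of the DREAM and MuvB complexes, which repress or activate the G2 and M phase genes, 4 fell and the median was -0.17. They were the pocket protein RBL1 (-0.85 ± 0.14), TFDP1 (-0.57 ± 0.13), RBBP4 (-0.54 ± 0.12) and LIN9 (-0.47 ± 0.13). None of the differences between these lists and the other lists or the 48 genes was tested.

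Genes of DNA replication, which act in S phase, also fell, 39 of 40 with a median of -0.84. RRM1 changed by -0.93 ± 0.082, GINS1 by -1.03 ± 0.10, POLE by -0.80 ± 0.082 and MCM6 by -0.98 ± 0.10. By line their medians were -1.12 in MDA-MB-231, -0.83 in A549 and -0.65 in SKOV3, while the mitosis genes had -0.69, -0.74 and -0.96 in the same order. In the test of SKOV3 minus MDA-MB-231, where 7.34% of all genes passed in either direction, 13 of the 40 replication genes passed, all with a higher value in SKOV3 and with a list median of 0.48. Of the 48 mitosis genes 1 passed, with a lower value in SKOV3, and their median was -0.24. These tests are gene by gene, and the contrast between the lists was not tested. Among 5 CDK inhibitors tested, CDKN1A (p21) rose and CDKN2C (p18) fell. CDKN1A had 64.2, 5.95 and 33.4 CPM in control cells with DMSO, 278, 22.9 and 96.4 in control cells with tipifarnib, 75.7, 3.78 and 21.0 in MYC cells with DMSO and 330.4, 44.3 and 59.5 in MYC cells with tipifarnib, higher in tipifarnib in all 6 pairs, and changed by 2.13 ± 0.25 (adjusted p = 0.00148). CDKN2C had 59.9, 105 and 84.0 CPM in control cells with DMSO, 25.4, 28.7 and 30.7 in control cells with tipifarnib, 54.4, 65.2 and 49.97 in MYC cells with DMSO and 25.6, 13.1 and 18.5 in MYC cells with tipifarnib, lower in all 6 pairs, and changed by -1.55 ± 0.19 (adjusted p = 0.00156).

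**Figure D3:**
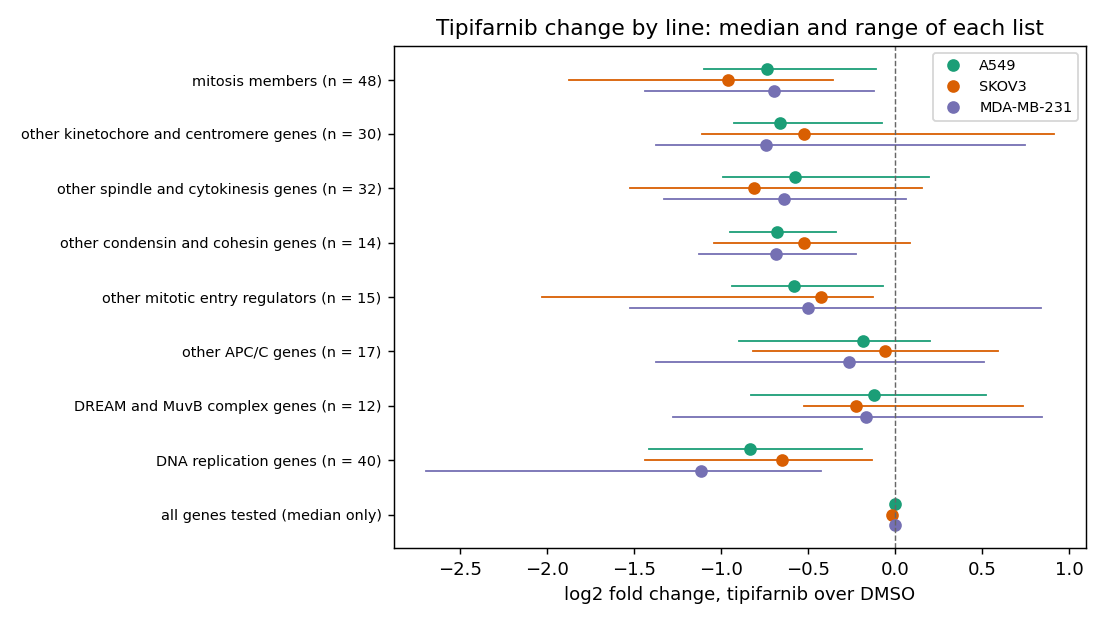
Fitted log2 fold change in tipifarnib over DMSO (x axis) for each list (y axis, with its number of genes), as the median (point) and full range (line) in each cell line; for all genes tested only the median is drawn. The mitosis genes have medians of -0.74, -0.96 and -0.69 in A549, SKOV3 and MDA-MB-231. In the same order the medians are -0.12, -0.23 and -0.17 for the DREAM and MuvB genes. For the other APC/C genes they are -0.19, -0.056 and -0.26. The full ranges of these lists in MDA-MB-231 run from -1.28 to 0.84 and from -1.37 to 0.51.

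The design asks whether MYC alters this response. In control cells 43 members fell in tipifarnib, against 1.49% of all genes, with a median of -0.93. In MYC cells 24 fell, against 0.714% of all genes, with a median of -0.71. These counts rest on 3 pairs each, dropped to 0 to 3 and 0 to 4 without 1 of the lines, and DESeq2 gave 41 in MYC cells, so they do not compare the genotypes. The difference itself, the interaction of MYC and tipifarnib, was positive where the fall was smaller in MYC cells. All 48 fitted interactions were positive, as were 51.5% of all genes, with a median of 0.24, a range of 0.033 to 0.46 and standard errors of 0.14 to 0.36. None passed, none had an unadjusted p under 0.05 in the main edgeR fit or in DESeq2, and 0% of all genes passed. When SKOV3 was left out, 4 members had an unadjusted p under 0.05 in edgeR and none passed. With each line's separate effects added to the edgeR model 6 members had an unadjusted p under 0.05, and the smallest adjusted p was 0.999. The members with the smallest p were KIF2C at 0.33 ± 0.17 (adjusted p = 1) and PTTG1 at 0.30 ± 0.16 (adjusted p = 1).

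By line, the interaction was positive for 45 members in MDA-MB-231, 41 in A549 and 36 in SKOV3, against 50.7%, 53.3% and 51.4% of all genes. Its medians over the members were 0.38, 0.23 and 0.12. It was positive in every line for 29 members, as for 10.9% of all genes. In KIF2C the log2 ratio of tipifarnib to DMSO was -1.03, -1.05 and -1.29 in control cells and -0.89, -0.86 and -0.65 in MYC cells. The median interaction was 0.16 to 0.29 when 1 line was left out. Over the 48 genes the pairs in control cells had medians of -0.87, -1.01 and -0.96, and those in MYC cells -0.62, -0.91 and -0.53. Genes measured in the same library are not independent, so their number does not add replicates to the 3 lines.

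**Figure D4:**
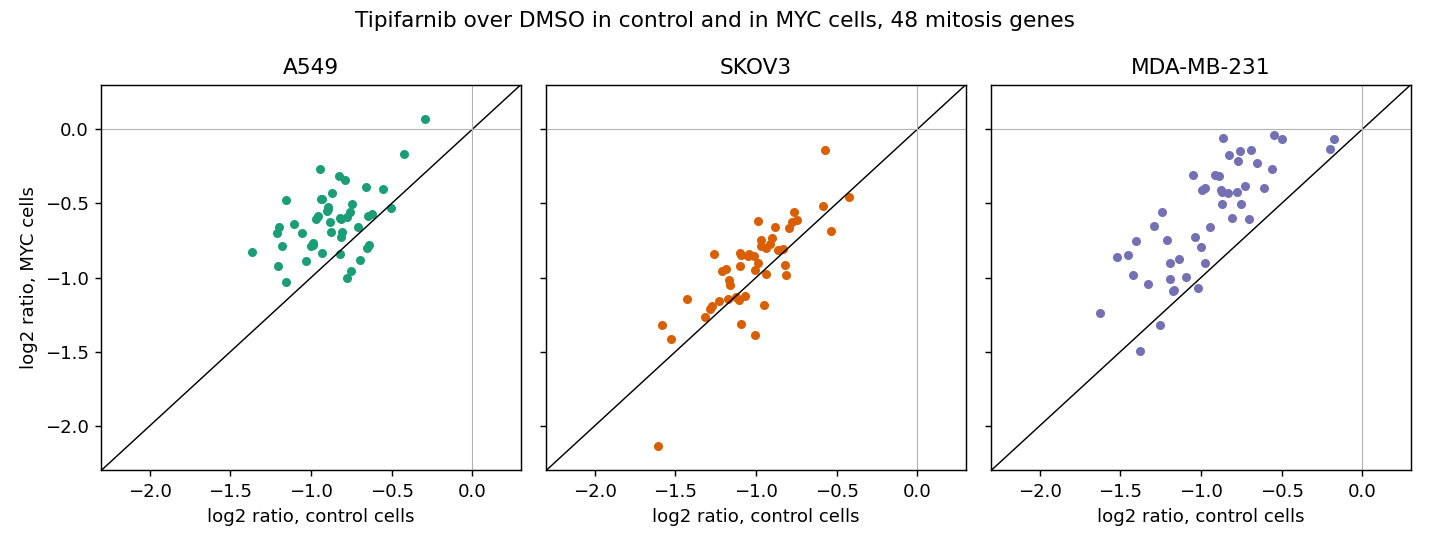
The log2 ratio of tipifarnib over DMSO in control cells (x axis) and in MYC cells (y axis), with 1 panel per cell line, 1 point per mitosis gene and the line of equal change in black. Above the line, where the fall was smaller in MYC cells, lie 45 points in MDA-MB-231, 41 in A549 and 36 in SKOV3. Of all genes, which are not drawn, 50.7%, 53.3% and 51.4% would lie there in the same order.

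MYC cells were then compared with control cells. Over both treatments, as 6 pairs of MYC and control libraries, 1 member rose and none fell, against 4.5% of all genes that rose and 2.84% that fell. This was MAD2L1, which rose by 0.40 ± 0.075 (adjusted p = 0.0179), higher in 6 of 6 pairs and with the levels given above. Without any single line it did not pass, with an adjusted p of 0.0794 to 0.222. AURKB and PLK1 followed, at 0.34 ± 0.10 (adjusted p = 0.0696) and 0.24 ± 0.075 (adjusted p = 0.081), each higher in 6 of 6 pairs. The median of the 48 was 0.049. The 1 member called, 2.08% of the 48, is not read as showing that MYC spared these genes. DESeq2 called 6 members. The shares of all genes that DESeq2 called are not given here, so its counts above and below are not read as results about the members.

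In DMSO and in tipifarnib taken apart, no member passed in edgeR, and 0% of all genes did. In DMSO 3 members had an unadjusted p under 0.05 and DESeq2 called 2. There 31 of 48 fitted changes were negative, against 49.4% of all genes, with a median of -0.060, and the smallest p belonged to ANLN, at -0.60 ± 0.18 (adjusted p = 0.15), and CDC25B, at -0.41 ± 0.13 (adjusted p = 0.177), both lower in 3 of 3 pairs. In tipifarnib 44 of 48 were positive, against 50.1% of all genes, with a median of 0.17, and the smallest p belonged to MAD2L1, at 0.51 ± 0.11 (adjusted p = 0.175), and CCNA2, at 0.33 ± 0.10 (adjusted p = 0.24), both higher in 3 of 3 pairs. There 9 members had an unadjusted p under 0.05 and DESeq2 called 2. The MYC change in DMSO and the tipifarnib change in control cells share the control DMSO libraries, and the MYC change in tipifarnib shares libraries with the tipifarnib change in MYC cells, so these values are not independent of one another.

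**Figure D5:**
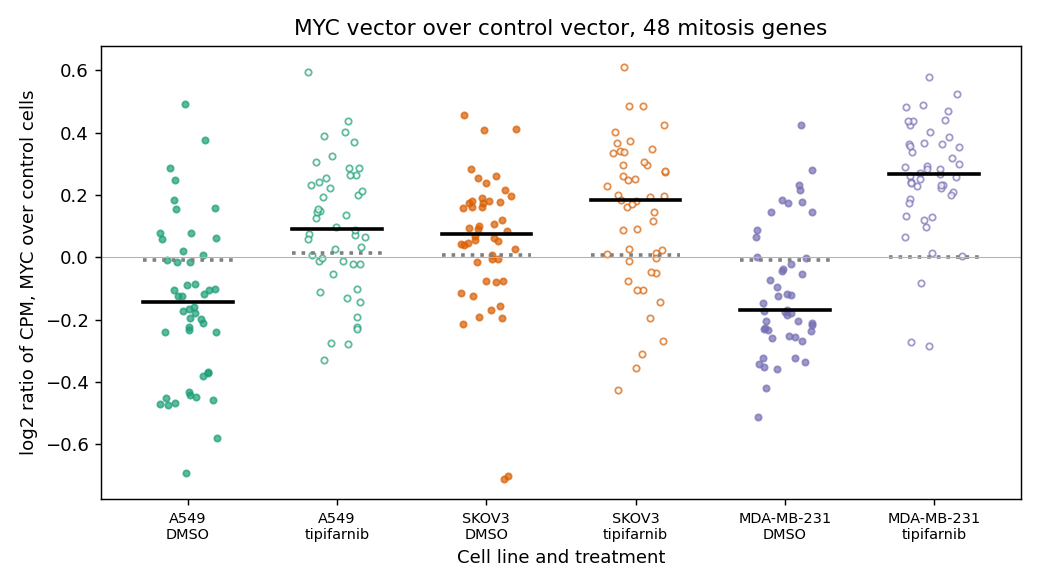
The log2 ratio of CPM in MYC over control cells (y axis) for the 48 mitosis genes in each cell line and treatment (x axis), with 1 point per gene (filled in DMSO, open in tipifarnib), a black bar at their median and a dotted bar at the median of all genes. The medians in DMSO are -0.14, 0.076 and -0.17 in A549, SKOV3 and MDA-MB-231, and in tipifarnib 0.093, 0.18 and 0.27.

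Within the lines MAD2L1 rose in MYC A549 cells, by 0.48 ± 0.12 (adjusted p = 0.0221), where 9.94% of all genes rose. That call was lost with the 4 A549 libraries fitted alone (adjusted p = 0.0535) and without the DMSO pair (0.081) or the tipifarnib pair (0.155). In SKOV3 no member passed, against 9.08% of all genes in either direction, and CDC25B and ANLN had the smallest p, at -0.48 ± 0.14 (adjusted p = 0.0606) and -0.57 ± 0.17 (adjusted p = 0.0738). In MDA-MB-231 no member passed, against 1.64% of all genes, and AURKB and MAD2L1 had the smallest p, at 0.48 ± 0.13 (adjusted p = 0.0883) and 0.34 ± 0.12 (adjusted p = 0.171). At an unadjusted p under 0.05 the counts were 7 for SKOV3 and 6 for MDA-MB-231, and DESeq2 called 2 and 1. No member passed the test of a MYC effect that differs between lines, with 1 member at an unadjusted p under 0.05 and 0 by DESeq2 in each of the 3 comparisons. The smallest p belonged to FOXM1 for SKOV3 minus MDA-MB-231, at 0.49 ± 0.17 (adjusted p = 0.334), to KIF14 for A549 minus SKOV3, at -0.62 ± 0.23 (adjusted p = 0.247), and to CENPA for A549 minus MDA-MB-231, at -0.56 ± 0.19 (adjusted p = 0.232). All genes passed these comparisons in 0.281%, 2.56% and 2.3% of cases.

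Some members share sequence or position with other genes, and the strand setting of the counting is not given in the sources used here. In the annotation 21 members overlap a gene on the opposite strand, among them PLK1 (ERN2), KIF20A (BRD8 and CDC23) and CCNA2 (EXOSC9), and 9 overlap a gene on the same strand, among them CENPA (SLC35F6) and BUB1B (BUB1B-PAK6). In all 10 members, some of them counted above too and UBE2C with 4 and AURKA with 2 among them, have pseudogenes named after them, to which reads could be lost. Reads that fell in more than 1 gene made up 9.22% to 10.6% of all counts and were not counted for any of them.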

How the data were processed

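RNA of 12 cultures was sequenced (SMARTER mRNA-Seq kit, per the labels' protocols). The authors deposited raw counts of reads for each gene. Per the submitters' processing notes TopHat2, HTSeq, DESeq2 and the build hg19 were used; versions, annotation and settings are not given in the sources used here. The 5 HTSeq summary rows (17.5% to 19.9% of counts) were left out, and all columns matched a sample (0 unmatched).

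Genes passing filterByExpr (17096) were scaled with TMM and tested with edgeR 4.0.16's quasi-likelihood test in R 4.3.3, calling genes at a Benjamini-Hochberg adjusted p under 0.05. The model over lines had line and group (6 residual degrees of freedom, biological coefficient of variation 0.245), and the model within or between lines had a MYC and a tipifarnib effect for every line (3 and 0.135). In all 19 comparisons were made. Line is the block: libraries of a line in other groups deviated together (r of 0.829 to 0.922 in 18 pairs; -0.551 to -0.307 between lines in 36), part of the negative values arising from centring on 3 libraries. The scripts were tested on simulated data. Alternatives were DESeq2 1.42.0 and its size factors, limma-voom (3.58.1), no low count filter, no replicate block, leaving out lines or pairs, summed libraries, a line's libraries or those of 2 lines alone, and line effects beside the interaction.

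Levels in every library are given for the 2 members with the smallest and the 1 with the largest tipifarnib p in each of 10 roles, and for members that did not pass; KIF20A, MYC and CDK inhibitor levels are added. Elsewhere the passing members, or the 2 with the smallest p, are named, and up to 4 genes per other list; MAD1L1 was chosen after its value was seen. Members and lists were chosen with earlier results of these data known. Python 3.11.15, pandas 2.3.3 and matplotlib 3.10.9 made the tables and figures.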

Additional observations from a re-analysis of the deposited data

Results flagged for a closer look

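The tipifarnib change of KIF20A, the central spindle kinesin, differed between lines in a test of the difference itself. It was -0.89 ± 0.22 for SKOV3 minus MDA-MB-231 (edgeR adjusted p = 0.0429, 0.000593 to 0.0479 over 5 alternatives) and 1.16 ± 0.22 for A549 minus SKOV3 (adjusted p = 0.0306, 1.63e-06 to 0.064 over 5 alternatives), on the log2 scale. KIF20A overlaps BRD8 and CDC23 on the opposite strand, and their part in the difference was not tested.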

How the results depend on the processing

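No value past the threshold changed direction. The 101 alternative medians moved by less than the spread between pairs. Where a line or a pair was left out, this was nearly fixed beforehand, because the spread came from the same pairs. Still, 3 medians for MYC turned sign. Over both treatments the median went from 0.0489 to -0.0001 without SKOV3. In A549 it went from -0.0547 to 0.0877 without the DMSO pair, and in MDA-MB-231 from 0.0652 to -0.17 without the tipifarnib pair. Of the alternative values of single members 320 stayed on their side of the threshold, 70 lost it and 15 gained it. Without the replicate block, that is without pairing libraries by line, no member passed for tipifarnib over both genotypes (0, with 28 at an unadjusted p under 0.05), in control cells (0) or in MYC cells (0), or for MYC over both treatments (0). With the libraries of a line summed, 13 and 0 passed for tipifarnib and for MYC. Leaving out 1 line gave 21 to 42 members for tipifarnib over both genotypes, 0 to 3 in control cells, 0 to 4 in MYC cells and 0 to 0 for MYC over both treatments. Leaving out 1 pair gave 8 to 18 for tipifarnib in A549, 9 to 25 in MDA-MB-231 and 0 to 0 for MYC in A549. DESeq2 called 41 for tipifarnib in MYC cells, 6 for MYC over both treatments, 2 for MYC in DMSO, 2 in tipifarnib, 2 in SKOV3 and 1 in MDA-MB-231. For tipifarnib effects that differ between lines DESeq2 called 2 for SKOV3 minus MDA-MB-231, 3 for A549 minus SKOV3 and 1 for A549 minus MDA-MB-231, and without a low count filter 3, 3 and 1 passed. For MYC without that filter 3 passed in SKOV3, 2 in A549 and 1 in MDA-MB-231, and with a line's 4 libraries alone 2, 0 and 1. limma-voom called 1 for MYC in SKOV3. With only the 8 libraries of A549 and SKOV3, 0 differed between them. The cause of these shifts was not tested, apart from the fewer libraries in some of them. Shares of all genes are not given beside the counts in this section, so they are not read as results about the members. Every member passed the filter on low counts, and each group has 3 libraries of different lines, which limits the precision.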
